A study of Homo sapiens with 4 samples.

Results

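The mRNAs of 8 genes that are recurrently altered in colorectal cancer or lie in its Wnt pathway were followed through a nuclear ORC1 RNA immunoprecipitation: APC, CTNNB1, AXIN2, TCF7L2, MYC, PIK3CA, CDKN1A and TGFBR2. These genes, like the gene lists used below, were chosen by name with earlier results of these data known. Each of the 8 was matched to its Ensembl gene identifier in GENCODE v44, which found all 8 among the 63677 genes of the count table. All 8 passed the filter on low counts and were among the 14645 genes tested. The cells were HCT116, an established human colorectal carcinoma line, and every library came from nuclei of cells transfected for 48 h with a pcDNA3.1 plasmid encoding ORC1, a subunit of the origin recognition complex, with a 3xFLAG tag. RNA from native precipitation with the FLAG M2 antibody (IP, 2 libraries) was compared with RNA of the nuclear lysate (Input, 2 libraries), and the labels number IP and Input of the same RIP experiment as replicate 1 and replicate 2. Input was the only reference, because the 4 libraries include neither untransfected cells nor a control antibody. From these libraries, RNA that adheres to beads or antibody and RNA bound by ORC1-FLAG cannot be told apart. Outside them, the study reports that control IgG recovered no detectable RNA beside its RIP with an antibody to ORC1. In its crosslinked iCLIP, it reports negligible RNA from FLAG precipitation of cells without the tagged ORC1. It also reports that most transcripts of its FLAG RIP overlapped those of the RIP of endogenous ORC1.

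In the canonical Wnt pathway, APC and AXIN2 act as scaffolds of the complex that marks beta-catenin for destruction, beta-catenin (the product of CTNNB1) carries the signal to the nucleus, and TCF7L2 is the DNA-binding protein it joins there, with MYC and AXIN2 among the genes that are then transcribed. PIK3CA, CDKN1A and TGFBR2 stand for the PI3K pathway, the p53 response and TGF-beta signalling, which are also commonly altered in this cancer. HCT116 is known for an activating allele of CTNNB1 beside intact APC, and for defective mismatch repair.

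The study described tandem GAA repeats as a feature of many RNAs associated with ORC1, so the canonical transcripts of the 8 genes were searched for GAAGAAGAA, on the transcript's own strand. APC, TCF7L2 and AXIN2 held it, and the other 5 canonical transcripts did not. Of the 12542 protein-coding genes tested, 1853 (14.8%) had it in their canonical transcript. The windows below are 5′ to 3′ from GENCODE v44, with the 9-base repeat in capitals and neighbouring bases in lower case. They show that the repeat of APC and both repeats of TCF7L2 are coding sequence, whereas that of AXIN2 lies in the 5′ UTR.
APC coding sequence, chr5:112839024-112839077, plus strand, GRCh38: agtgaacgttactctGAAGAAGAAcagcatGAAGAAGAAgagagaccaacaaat
TCF7L2 coding sequence, chr10:113151732-113151770, plus strand, GRCh38: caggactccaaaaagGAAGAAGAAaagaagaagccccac
TCF7L2 coding sequence across an exon junction, chr10:113152431-113152440 and chr10:113158021-113158049, plus strand, GRCh38: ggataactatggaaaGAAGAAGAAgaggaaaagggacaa
AXIN2 5′ UTR, chr17:65558650-65558670, minus strand, GRCh38: gaactgGAAGAAGAAaaattc

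The APC window holds 2 copies separated by 6 bases, and the first TCF7L2 window starts in frame, so that GAA is there the codon of glutamate. The shorter run GAAGAA, with overlapping matches counted, was denser than the protein-coding median of 0.693 per kb in 5 of the 8 transcripts, at 1.72 per kb in TCF7L2, 1.64 in AXIN2, 1.49 in APC, 1.19 in PIK3CA and 1.07 in MYC. It was sparser in CTNNB1 (0.546), CDKN1A (0.472) and TGFBR2 (0.442). A match describes the transcript only, and these windows were not tested here as sites of binding. From crosslink positions and gel shift assays, the study concluded that ORC1 binding does not go through this repeat. It reported this type of sequence in most RNAs of its FLAG RIP, by a motif search in the largest transcripts. An exact match to GAAGAAGAA in canonical transcripts is another definition, so the shares given above cannot be set against that report.

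The IP libraries summed to 27483148 and 20280445 counts and the Input libraries to 14677002 and 9213877, replicate 1 first. Levels below are CPM, a gene's counts relative to the library total, after TMM scaling (a trimmed mean of M values), written as scaled CPM. They compare a gene's share of each library, not its molecules per cell. In bulk nuclear RNA, fewer cells with a transcript and less of it in each cell cannot be told apart. Epithelial and colorectal markers summed to between 4130 and 4520 scaled CPM in IP and between 2320 and 2520 in Input, with 8 of 9 having counts and CDX1 at 0. KRT8 (2050 and 1760 in IP) and KRT19 (1460 and 1540) were the highest of them. In any library CDX2 had at most 11.1 scaled CPM, KRT20 at most 1.44 and VIL1 at most 0.284. The 6 blood cell markers summed to at most 2.9 scaled CPM, with CD3E and CD68 at 0. The 6 fibroblast markers summed to between 22.6 and 27.7 scaled CPM in IP and between 8.81 and 11.2 in Input (DCN and LUM at 0), of which COL1A1 alone gave 21.6 and 26.7 in IP and 7.89 and 10.7 in Input, and the 4 endothelial markers to at most 3.24 (PECAM1 at 0); their part in the results was not tested. Counts on the ORC1 gene, in which plasmid and endogenous transcripts were not separated, differed between the replicates: scaled CPM in replicate 2 was 16.7-fold that of replicate 1 among the IP libraries and 15.1-fold among the Input libraries.

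Of the 8 mRNAs, 2 (APC and MYC) were enriched in ORC1-FLAG IP over Input and 0 were depleted, by edgeR's quasi-likelihood test, where a call needed an adjusted p (Benjamini-Hochberg) under 0.05 and a fold change of more than 1 on the log2 scale in either direction. DESeq2 and limma voom also called 2 enriched and 0 depleted. By the rule of the calls, adjusted p and fold limit together, 10.5% of all tested genes were enriched and 8.30% depleted. At an unadjusted p below 0.05 edgeR had 5 of the 8 higher and 1 lower in IP, whatever the fold change. The share of all genes at that unadjusted threshold was not counted, so such counts, here and for the lists below, have no background to be read against. The IP to Input ratio was above 1 in both replicates for 6 mRNAs and below 1 in both for CDKN1A and TGFBR2. The median log2 fold change of the 8 was 0.68, beside 0.01 for all tested genes and 0.08 for the protein-coding ones, whose quartiles were -0.51 and 0.68. Because the names of the RIP replicates pair an IP with an Input library, the fold changes were also fitted with a replicate block. That fit again called 2 enriched and 0 depleted, against 13.4% of all genes in each direction. The adjusted p was below 0.05 for all 8 mRNAs with the block, 6 higher and 2 lower in IP, beside 28.7% of all genes higher and 25.6% lower at that threshold whatever their fold change.

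**Figure D1:**
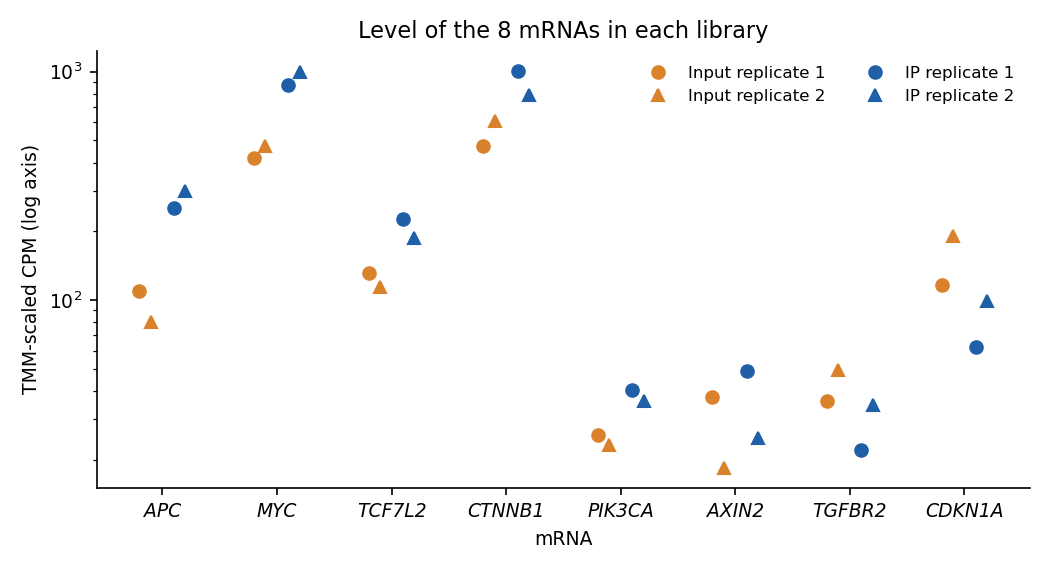
Scaled CPM of each mRNA (log axis) in the 4 libraries, with Input in orange, IP in blue, replicate 1 as circles and replicate 2 as triangles. MYC and CTNNB1 lie highest, both IP libraries lie above both Input libraries for APC, and the order is turned round for CDKN1A and TGFBR2.

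**Figure D2:**
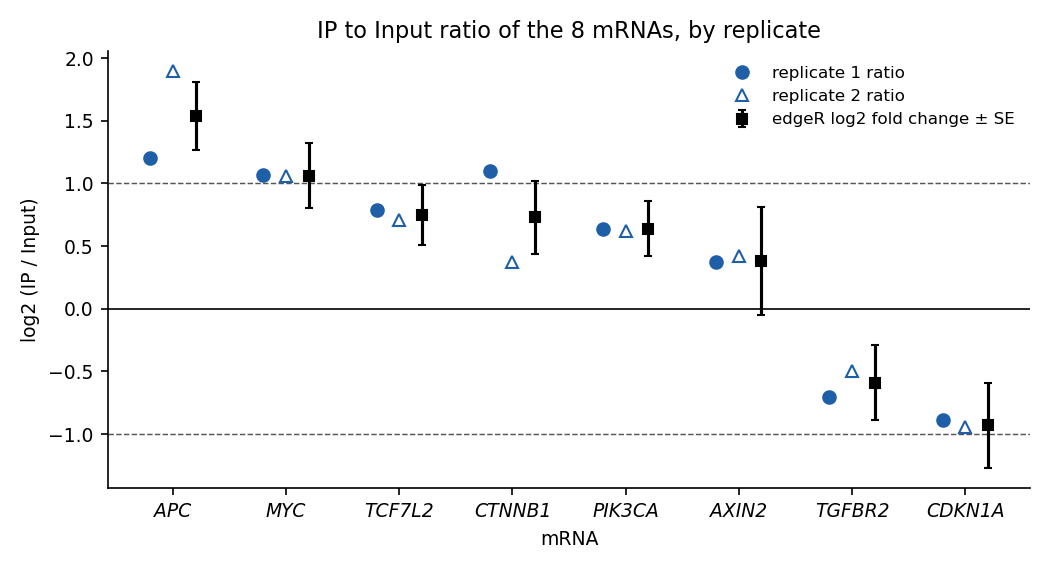
log2 ratio of IP to Input in each replicate (blue) and the edgeR log2 fold change with its standard error (black), for 2 IP and 2 Input libraries. Dashed lines mark the fold change limits of 1 and -1. APC (1.54) and MYC (1.06) lie past the upper limit, and CDKN1A (-0.93) lies just inside the lower one.

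APC (ENSG00000134982; chr5:112707518-112846239, plus strand, GRCh38) encodes the scaffold of the destruction complex whose loss starts most colorectal tumours. Its scaled CPM, given here and below with replicate 1 first, was 252 and 301 in IP and 110 and 80.2 in Input. Both IP libraries lay well above both Input libraries. APC was 2.91-fold higher in IP, a log2 fold change of 1.54 ± 0.27 (SE; adjusted p = 0.0139, edgeR). The replicate ratios differed more than for most genes, at 1.20 and 1.90 on the log2 scale, beside a median absolute difference of 0.25 over the protein-coding genes. The enrichment was called with each library left out in turn, at log2 fold changes between 1.19 and 1.82. Among all tested genes the fold change of APC stood at percentile 95.9.

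AXIN2 (ENSG00000168646; chr17:65528563-65561648, minus strand, GRCh38) encodes a second scaffold of the complex and is itself a Wnt target. Its scaled CPM was 48.7 and 24.8 in IP against 37.7 and 18.4 in Input. The groups overlapped, since the gene was higher in replicate 1 than in replicate 2 on both sides, 1.96-fold in IP and 2.05-fold in Input. Within each replicate the ratio was nearly the same, 0.37 and 0.42 on the log2 scale. The fold change without regard to replicate was 0.38 ± 0.43 (SE; adjusted p = 0.551, edgeR), and with the replicate block it was 0.40 (adjusted p = 0.0447), short of the fold limit in both fits. Leaving out 1 library moved it between -0.19 and 1.03, and it was called enriched without Input replicate 1 (adjusted p = 0.0161). AXIN2 was thus the member whose value depended most on which libraries were set against each other.

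CTNNB1 (ENSG00000168036; chr3:41194741-41260096, plus strand, GRCh38) encodes beta-catenin, the effector of the pathway and a partner of cadherins at cell junctions. It was among the most abundant of the 8, at 1010 and 789 scaled CPM in IP and 472 and 608 in Input. The groups did not overlap, but the gap was wide in replicate 1 and narrow in replicate 2, with log2 ratios of 1.10 and 0.37. The log2 fold change was 0.73 ± 0.29 (SE; adjusted p = 0.107, edgeR), which did not pass the test. With the replicate block the adjusted p was 0.00637 at a similar fold change, still under the fold limit. With each library left out the fold change lay between 0.59 and 0.96 and was not called.

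TCF7L2 (ENSG00000148737; chr10:112950247-113167678, plus strand, GRCh38) encodes the main TCF transcription factor of the intestinal epithelium. Its scaled CPM was 227 and 186 in IP against 131 and 114 in Input, so that every IP library lay above every Input library. The replicates gave close log2 ratios of 0.79 and 0.71. The log2 fold change was 0.75 ± 0.24 (SE; adjusted p = 0.065, edgeR), or with the replicate block an adjusted p of 0.00123, and was under the fold limit. With each library left out it lay between 0.51 and 0.94 and was not called. The sequence windows of TCF7L2 and of APC both hold coding GAA repeats, but only APC was called. Whether the fold changes of TCF7L2 and APC differ was not tested.

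MYC (ENSG00000136997; chr8:127735434-127742951, plus strand, GRCh38) encodes the growth-promoting transcription factor that Wnt signalling induces in the intestine. It had 876 and 992 scaled CPM in IP, and 418 and 474 in Input. The groups were far apart, and the log2 ratios of the replicates, 1.07 and 1.06, were almost equal. MYC was 2.09-fold higher in IP, a log2 fold change of 1.06 ± 0.26 (SE; adjusted p = 0.0303, edgeR), which lies close to the limit of 1. The call was kept without IP replicate 1 but lost without Input replicate 1 (adjusted p = 0.0796), without Input replicate 2 (0.0688) and without IP replicate 2 (0.0849), with fold changes between 1.01 and 1.20 in those 4 fits. With the replicate block MYC was called at an adjusted p of 9.3e-05.

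PIK3CA (ENSG00000121879; chr3:179148114-179240093, plus strand, GRCh38) encodes the catalytic p110-alpha subunit of PI3-kinase. Its scaled CPM was 40.3 and 36.0 in IP, with 25.7 and 23.2 in Input. The groups did not overlap and the log2 ratios were 0.64 and 0.62. The log2 fold change of 0.64 ± 0.22 (SE; adjusted p = 0.0759, edgeR) did not pass the test, and with the replicate block the adjusted p was 0.00297. With each library left out the fold change lay between 0.42, without Input replicate 2, and 0.76, and was not called.

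CDKN1A (ENSG00000124762; chr6:36676460-36687337, plus strand, GRCh38) encodes p21, the inhibitor of cyclin-dependent kinases that p53 induces. Its scaled CPM was 62.4 and 98.7 in IP against 116 and 190 in Input. It was the member with the lowest ratio, and both IP libraries lay under both Input libraries. Replicate 2 exceeded replicate 1 by a factor of 1.58 in IP and 1.63 in Input, so the log2 ratios, -0.89 and -0.94, again differed little. The log2 fold change was -0.93 ± 0.34 (SE; adjusted p = 0.0911, edgeR), and the adjusted p was 0.000181 with the replicate block. CDKN1A was called depleted without Input replicate 1 (-1.20, adjusted p = 0.00411) and without IP replicate 2 (-1.24, adjusted p = 0.0288). It was weaker without IP replicate 1 (-0.59, adjusted p = 0.399) and without Input replicate 2 (-0.68, adjusted p = 0.113).

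TGFBR2 (ENSG00000163513; chr3:30606601-30694142, plus strand, GRCh38) encodes the type II receptor of TGF-beta, whose coding repeat is often disrupted in colorectal tumours that lack mismatch repair. Its scaled CPM was 22.0 and 34.6 in IP against 36.0 and 49.2 in Input. The highest IP value lay just under the lowest Input value. The log2 ratios were -0.70 and -0.50, and the log2 fold change was -0.59 ± 0.30 (SE; adjusted p = 0.19, edgeR). With the replicate block the adjusted p was 0.00373, at a fold change of -0.61. Leaving out 1 library moved it from -0.90 to -0.25, the weakest without IP replicate 1 (adjusted p = 0.77), and TGFBR2 was called in none of those 4 fits.

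To compare levels between the genes, scaled CPM was divided by exonic length in kb, taken over the union of exons. That union spans all annotated isoforms and exceeds the canonical transcript to a different degree in each gene. It was 11759 against 3661 bases for CTNNB1 and 6109 against 3721 for MYC. The order between genes therefore depends on this divisor, and no other was tested. In Input the order was MYC at 73.0 ± 6.58 scaled CPM per kb (SD, n = 2), CDKN1A at 51.1 ± 17.3, CTNNB1 at 46.0 ± 8.17, TCF7L2 at 18.2 ± 1.78, APC at 6.96 ± 1.53, TGFBR2 at 6.22 ± 1.36, AXIN2 at 5.39 ± 2.63 and PIK3CA at 1.42 ± 0.103. CDKN1A and CTNNB1 were closer than their spread, and so were APC, TGFBR2 and AXIN2. In IP the order of the means per kb was MYC at 153 ± 13.4 (SD, n = 2), CTNNB1 at 76.6 ± 13.5, TCF7L2 at 30.7 ± 4.24, CDKN1A at 26.9 ± 8.55, APC at 20.3 ± 2.57, AXIN2 at 7.07 ± 3.25, TGFBR2 at 4.13 ± 1.30 and PIK3CA at 2.22 ± 0.175. There CDKN1A was closer to TCF7L2 and to APC than its own spread, and AXIN2 was closer to TGFBR2 than its own. By this measure the mRNA most enriched, APC, was of modest abundance among the 8, and MYC was abundant and enriched. Genes that share exonic bases with a member in GENCODE v44 had at most 6 counts in any library. AXIN2 shares 25.3% of its exonic bases with one of them on the same strand, and PIK3CA 19.8% with KCNMB3 on the other. Those counts cannot show whether reads in shared bases were left out of a member, and the counting used another annotation. DINOL, which overlaps CDKN1A, had no row in the table used here.

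The coding length of the canonical transcript ran from 492 bases in CDKN1A to 8529 in APC, and the member with the shortest coding sequence had the lowest fold change and that with the longest the highest. Over the 12542 tested protein-coding genes, Spearman's rho of the log2 fold change with coding length was 0.589, and over the 8 members it was 0.429, both as descriptions across genes of the same libraries. Each member was therefore set beside the genes of its own length decile. APC, in the longest decile, had a fold change of 1.54 beside a decile median of 1.07 and stood at percentile 78.4 of that decile. MYC, with 1362 coding bases, departed most in the upward direction, at 1.06 beside a decile median of -0.03 (percentile 93.6). TGFBR2, with 1701 coding bases, departed most in the downward direction, at -0.59 beside 0.28 (percentile 8.22).

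The other members lay nearer the middle of their deciles. TCF7L2 stood at percentile 75.1 of the decile it shares with TGFBR2, and CTNNB1 at percentile 67.7 of the next longer one. AXIN2 (percentile 46.2), PIK3CA (49.4) and CDKN1A (44.4) lay close to the medians of theirs, which were 0.45, 0.64 and -0.81. TCF7L2 and TGFBR2 thus differed in sign at similar coding lengths of 1857 and 1701 bases. The part of length in these fold changes was not tested.

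**Figure D3:**
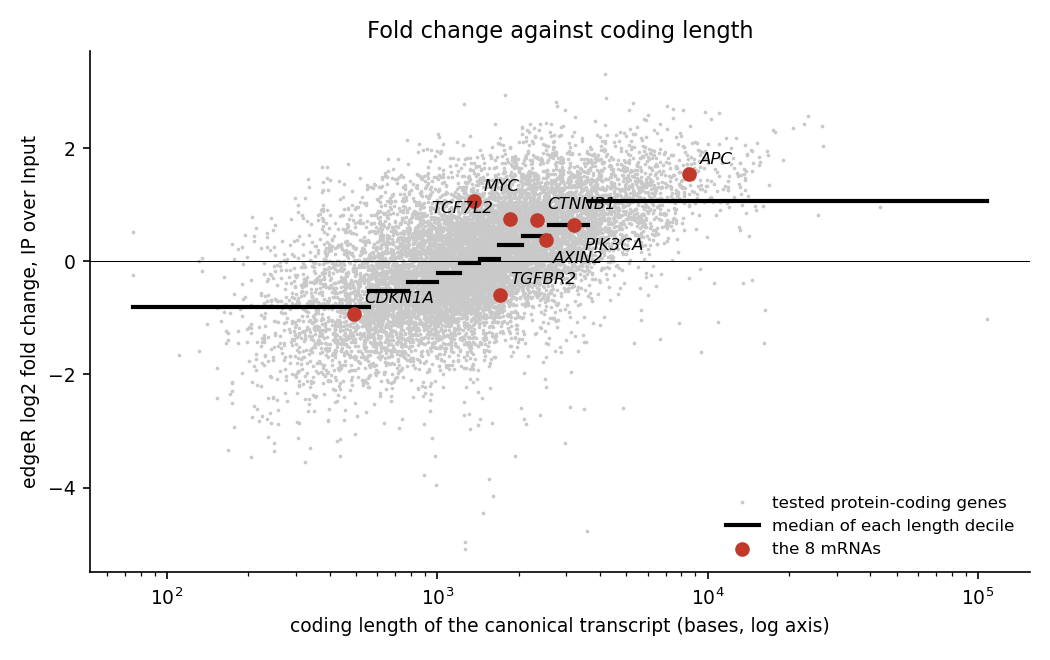
edgeR log2 fold change of IP over Input against coding length in bases (log axis) for 12542 tested protein-coding genes (grey), with the median of each length decile (black bars) and the 8 mRNAs (red). The decile medians climb from -0.81 to 1.07, MYC lies above the median of its decile, TGFBR2 lies under that of its own, and CDKN1A and APC lie at the short and long ends.

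The other genes of the same pathways were taken from 11 lists holding 236 genes, of which 219 were tested. Of these, 23 (10.5%) were enriched and 8 (3.65%) depleted, beside 10.5% and 8.30% of all tested genes, and their median log2 fold change was 0.02. Called genes, like the members, differed in coding length: 18 of the 23 enriched were in the 2 longest deciles and 5 of the 8 depleted in the 2 shortest, with rho of 0.58 over the 219. Of the 188 not called, 40 were in the 2 longest deciles and 17 in the 2 shortest. All tested genes showed this too. Of 1542 enriched genes, 584 and 302 were protein-coding genes of the 2 longest deciles. Of 1215 depleted genes, 438 and 232 were protein-coding genes of the 2 shortest.

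In the beta-catenin destruction complex, 1 of 28 tested genes was enriched and 1 depleted (median -0.04). Both encode parts of the SCF ubiquitin ligase, which takes up beta-catenin once it is marked: CUL1, the cullin scaffold, had a log2 fold change of 1.52 ± 0.33 (SE; adjusted p = 0.0219, edgeR) and RBX1, its RING subunit, fell by 2.43 on the log2 scale (adjusted p = 0.0107). AXIN1, the paralogue of AXIN2, had 0.46 (adjusted p = 0.167), close to the value of AXIN2. The kinase gene GSK3B had a fold change of -0.86 (adjusted p = 0.0413) and missed the fold limit. Upstream, 0 of the 33 tested ligands, receptors and regulators were enriched by edgeR (0 by DESeq2 and limma voom, 1 higher at an unadjusted p below 0.05) and 1, the receptor gene FZD3, was depleted (-1.38, adjusted p = 0.0148), while the co-receptor gene LRP6 had 0.46 (adjusted p = 0.169).

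Of the nuclear partners of beta-catenin and TCF, 4 of 19 tested genes were enriched and 0 depleted by edgeR (median 0.52), with 0 depleted by DESeq2 and limma voom and 3 lower at an unadjusted p below 0.05. They encode chromatin regulators: the remodellers CHD8 (2.07, adjusted p = 0.0105) and SMARCA4 (1.75, adjusted p = 0.0107), and the acetyltransferases EP300 (1.65, adjusted p = 0.0107) and CREBBP (1.15, adjusted p = 0.0191). The coding sequences of all 4 are in the longest decile. BCL9 (0.19, adjusted p = 0.541) and BCL9L (0.89, adjusted p = 0.0517) of this list are in that decile too and were not called. TCF7, a paralogue of TCF7L2, had a fold change of -0.17 (adjusted p = 0.614), against 0.75 for TCF7L2. LEF1 had 0 counts in all 4 libraries, which by a limit of 3 counts allows between 0.109 and 0.326 CPM of the library total, counting error only.

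Among the intestinal Wnt targets 1 of 17 was enriched, the adhesion receptor gene CD44 (1.44, adjusted p = 0.0154), at 1530 and 1610 scaled CPM in IP and 543 and 607 in Input. Among the 6 cadherin and catenin genes all 6 were tested and 1 was enriched (median 0.84), CTNNA1, which encodes the alpha-catenin that binds beta-catenin at junctions. CTNNA1 had a log2 fold change of 1.93 ± 0.29 (SE; adjusted p = 0.0108, edgeR). CDH1, which encodes E-cadherin, had 0.73 (adjusted p = 0.206), the value of CTNNB1.

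In the MYC network 5 of 17 tested genes were enriched and 0 depleted by edgeR (median 0.47), with 0 depleted by DESeq2 and limma voom and 0 lower at an unadjusted p below 0.05. The ubiquitin ligase gene HUWE1 had 1.73 (adjusted p = 0.0132), MGA, which encodes a MAX partner, had 1.67 (adjusted p = 0.0108) and TRRAP, a cofactor of MYC, had 1.33 (adjusted p = 0.0163). All 3 have coding sequences in the longest decile, unlike MYC. FBXW7, whose product targets MYC for destruction, had 1.03 (adjusted p = 0.0225), near the limit.

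Of the PI3K and mTOR genes, 4 of 22 were enriched and 1 depleted (median 0.29), beside 0.64 for PIK3CA. PIK3R4, a regulatory subunit of the class III kinase, had 1.32 (adjusted p = 0.0193), the kinase gene MTOR had 1.21 (adjusted p = 0.0184) and TSC2, which encodes a brake on mTOR, had 1.08 (adjusted p = 0.0193). The small GTPase gene RHEB, the target of that brake, was depleted (-1.34, adjusted p = 0.0150).

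In the RAS and MAPK pathway 0 of 21 tested genes were enriched by edgeR (0 by DESeq2 and limma voom, 3 higher at an unadjusted p below 0.05), and their median was -0.04. BRAF had -0.14 (adjusted p = 0.691). The 23 tested TGF-beta and BMP genes had a median of -0.24, with 0 enriched by edgeR, DESeq2 or limma voom (0 higher at an unadjusted p below 0.05) and 1 depleted, the receptor gene BMPR1A (-1.07, adjusted p = 0.0265). SMAD4 had -0.65 (adjusted p = 0.0977), near the value of TGFBR2.

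Of the p53 and G1 control genes, 2 of 29 tested were enriched and 2 depleted (median -0.30), beside -0.93 for CDKN1A. The enriched genes encode the large damage kinases ATR (1.58, adjusted p = 0.0129) and ATM (1.19, adjusted p = 0.0200). The depleted genes were ZMAT3 (-1.42, adjusted p = 0.0177), another p53 target, and CDKN2D (-1.17, adjusted p = 0.0359), which encodes another inhibitor of cyclin-dependent kinases. MDM2, the target that restrains p53, had -0.30 (adjusted p = 0.372).

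Of the other genes recurrently mutated in colorectal carcinoma, 6 of 24 tested were enriched (median 0.60). POLE, the catalytic subunit of DNA polymerase epsilon, had 1.60 (adjusted p = 0.0125) and the protease gene CASP8 had 1.44 (adjusted p = 0.0132). B2M, the light chain of MHC class I, was depleted with -2.38 ± 0.27 (SE; adjusted p = 0.0105, edgeR). The remodeller gene ARID1A had 0.83 (adjusted p = 0.0423) and missed the fold limit.

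With the replicate block, the genes also called depleted included PYGO1 of the nuclear partners (-1.40, adjusted p = 0.0162), WNT2B of the ligands (-1.02, adjusted p = 0.00387) and CDK6 of the G1 control genes (-1.11). TSC1 of the mTOR genes (1.00) was no longer enriched. Several named genes had an adjusted p below 0.05 with the block (edgeR) but stayed inside the fold limits. Among them were AXIN1 (0.46, adjusted p = 0.0231), LRP6 (0.46, 0.0249), CDH1 (0.78, 0.000974), SMAD4 (-0.66, 0.00362), GSK3B (-0.87, 0.00025) and ARID1A (0.83, 0.000533). TCF7 (0.422), BRAF (0.468) and MDM2 (0.138) did not reach it. Of all tested genes, 54.3% had an adjusted p below 0.05 with the block, whatever their fold change. PYGO1 rested on 10 to 28 counts a library (at most 1.6 scaled CPM) and WNT2B on 45 to 87 (at most 7.41). The genes whose call the block changed were named after their values were seen. Several of the calls near the limits changed when 1 library was left out, which leaves 1 library in a group. FBXW7 was not called without Input replicate 1 (0.92), CREBBP and TSC2 without Input replicate 2 (0.92 and 0.95), and TSC2 without IP replicate 1 (0.99). BMPR1A was called only without Input replicate 2 among those 4 fits, with fold changes of -0.80, -1.11 and -0.94 in the others, and likewise CDKN2D, with -1.20, -1.14 and -1.11. With the replicate block, on all 4 libraries, both were called depleted (BMPR1A -1.06, CDKN2D -1.17). GSK3B (-1.11) was called depleted without Input replicate 2, and CDH1 (1.18) enriched.

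**Figure D4:**
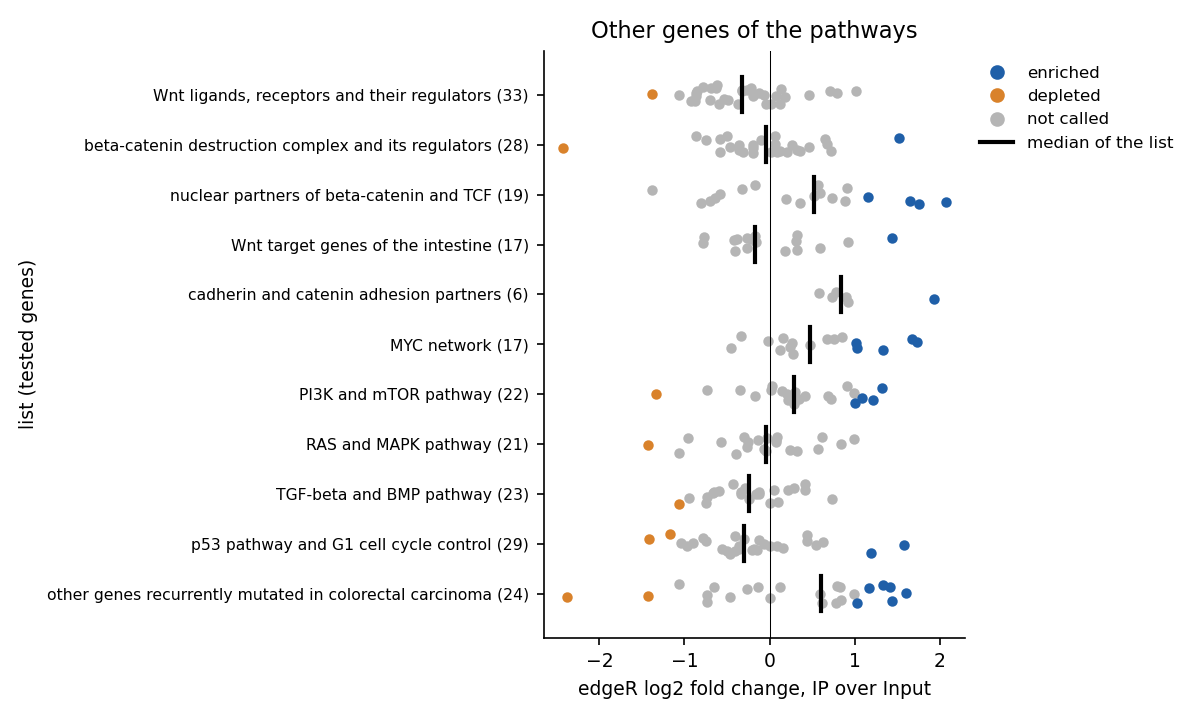
edgeR log2 fold change of IP over Input for each tested gene of the 11 pathway lists, without the 8 mRNAs, with the number tested in parentheses and the median of each list as a black bar. Blue points are enriched and orange points depleted. The calls are those of the fit without the replicate block. The nuclear partners and the MYC network hold enriched but no depleted genes there, and the list of Wnt ligands and receptors holds 1 depleted gene and no enriched one.

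For each member, the tested gene with the nearest profile was the one at the smallest Euclidean distance over log2 scaled CPM in the 4 libraries. The closest match was TALDO1, a pentose phosphate enzyme, to TCF7L2 (distance 0.0861), followed by CHKA to PIK3CA (0.117) and YLPM1 to APC (0.205). TUBA1A was nearest to TGFBR2 (0.252), MEF2C to AXIN2 (0.276), TRIP12 to MYC (0.34), PGK1 to CTNNB1 (0.343) and RHOB to CDKN1A (0.377). YLPM1 and TRIP12 were called enriched, with log2 fold changes of 1.56 (adjusted p = 0.0132, edgeR) and 1.20 (adjusted p = 0.023). Because the distance uses the same 4 libraries, a ratio near that of the member follows from the selection and is no separate evidence. The likeness covers level and ratio together over 4 libraries.

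The choice of scaling set where the zero of these fold changes lay. Scaled by library size alone, the median of all genes moved by -0.60, and APC had a log2 fold change of 0.95 (adjusted p = 0.0276) and MYC 0.46 (adjusted p = 0.177), so that neither was called. CDKN1A (-1.52) and TGFBR2 (-1.18) were called depleted under that scaling and AXIN2 turned to -0.23. Measured from the median of all genes, APC stood at 1.55, AXIN2 at 0.36 and CDKN1A at -0.93 there, close to their values under TMM. With no spike-in, which zero is right was not tested.

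**Figure D5:**
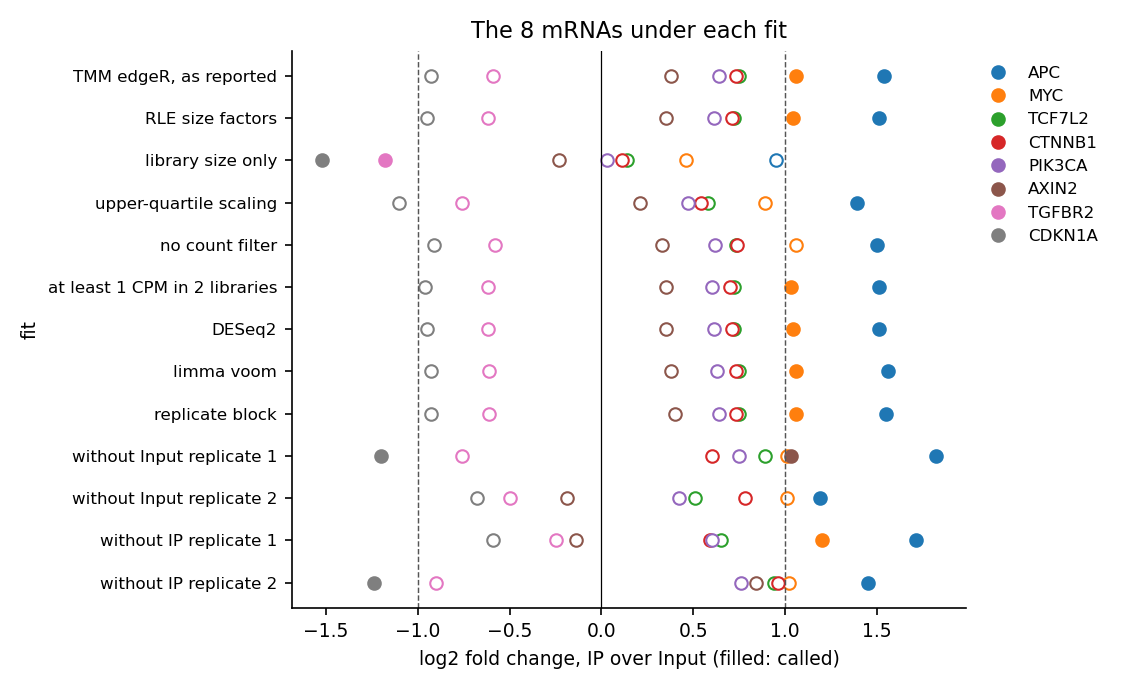
log2 fold change of the 8 mRNAs under the reported fit and each alternative, with filled points called and open points not called. APC lies right of the other members in every row, AXIN2 crosses 0 in 3 rows, and library size only shifts all 8 to the left.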

How the data were processed

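The authors deposited raw read counts per gene for 4 RIP-seq libraries, with no normalization. Per the labels and the study's methods, Trimmomatic was used for trimming, STAR for alignment to hg19 (GRCh37) and featureCounts for counting. The annotation release, the strand setting and the handling of reads with several alignments are not given in the sources used here, and the reads carry no molecular identifiers. Coordinates, lengths and transcript sequences came from GENCODE v44 on GRCh38, another build than that of the counts, joined by Ensembl identifier.

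IP was compared with Input by the quasi-likelihood test of edgeR 4.0.16 in R 4.3.3, with TMM scaling, genes kept by filterByExpr, robust dispersions and group as the only term. Genes were called at a Benjamini-Hochberg adjusted p below 0.05, over all genes tested, and a fold change past 1 or -1 on the log2 scale. The SE of a log2 fold change was derived from the test, as its absolute value divided by the square root of the F statistic. Ratios per replicate used scaled CPM with a pseudocount of 0.5. The alternatives tried were DESeq2 1.42.0, voom of limma 3.58.1, scaling by RLE size factors, by library size only or by the upper quartile, no count filter or one of 1 CPM in 2 libraries, a replicate block, each library left out, a pseudocount of 2 and unscaled CPM. The numbers pair the libraries because the labels give IP and Input of one RIP the same number, and their deviations from the group means correlated (Pearson r = 0.645 across 14645 genes). The code was tested on simulated data.

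The members and gene lists were chosen with earlier results of these data known, and the comparison with coding length deciles was added after seeing them. Named genes were the 8 members, 14 fixed genes (BRAF, SMAD4, AXIN1, GSK3B, LRP6, TCF7, LEF1, ARID1A, MDM2, CDH1 and others that are not reported here), in each list up to 4 called genes with the largest fold change at a mean of at least 5 scaled CPM, and the nearest gene to each member. The study calls these duplicate experiments and reports that its experiments were repeated independently. It does not say that these libraries came from separate cultures. With 2 libraries a group, p-values measure the spread between these libraries, which may be technical in part.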

Additional observations from a re-analysis of the deposited data

How the results depend on the processing

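APC was called enriched under every alternative except library size only, and MYC under RLE size factors, DESeq2, a filter of 1 CPM in 2 libraries, limma voom, the replicate block and without IP replicate 1. The number of the 8 mRNAs called enriched was 2 as reported, 0 with library size only, 1 with upper-quartile scaling (MYC 0.89, adjusted p = 0.0419), 1 with no count filter (MYC 1.06, adjusted p = 0.0965), and 1 to 2 with each library left out. The number called depleted was 0 as reported, 2 with library size only, and 0 to 1 with each library left out. Without Input replicate 1 the enriched pair was APC and AXIN2. AXIN2 changed sign with library size only (-0.23), without Input replicate 2 (-0.19) and without IP replicate 1 (-0.14), AXIN1 and LRP6 with library size only (-0.14 each), and BRAF without IP replicate 2 (0.05). With each library left out, AXIN2 ranged from -0.19 to 1.03 and BRAF from -0.34 to 0.05. Library size only called 380 of all tested genes enriched and 3257 depleted, against 1542 and 1215 as reported, and 6 and 45 of the pathway list genes, against 23 and 8. Upper-quartile scaling called 19 pathway list genes depleted, and the number ranged from 7 to 23 with each library left out, the highest without Input replicate 2. With the replicate block, 1960 of all tested genes were enriched and 1957 depleted, and 22 and 12 of the pathway list genes. The block changed no call among the 8 mRNAs. A pseudocount of 2 left the sign of every replicate ratio of the 8 as it was, and unscaled CPM turned that of CTNNB1 in replicate 2 (-0.18), of AXIN2 in both replicates (-0.28 and -0.12) and of PIK3CA in replicate 1 (-0.01). The cause of these changes was not tested, apart from the shift of all genes that each scaling sets by construction.

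Limits: Input was the only reference, and no spike-in fixes the zero of the fold changes. The lowest count behind a member was 216 (AXIN2, Input replicate 2) and the highest 21099 (CTNNB1, IP replicate 1). The replicate ratios of PIK3CA, at 273 to 839 counts, differed by little, and counting error was not separated from the spread between libraries. The counts on the ORC1 gene differed between replicates in IP and Input alike, and its part in the replicate differences of APC and CTNNB1 was not tested.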
